A study of Danio rerio with 15 samples.

Results

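The 72 genes described here carry the symbols of genes for splicing factors and heterogeneous nuclear ribonucleoproteins (hnRNPs). The second row named hnrnpa0l, described below, may be no hnRNP gene but is counted among the 72. The 72 are all the rows of the deposited expression table whose symbol begins with srsf (17 genes), hnrnp (21), snrp (12), sf3 (9) or prpf (13), out of 15937 genes in the table. Polyadenylated transcripts were sequenced from neutrophils of zebrafish embryos in 15 libraries, 3 for each of 5 groups. The cells had been sorted on a green fluorescent protein reporter under the control of mpx, the myeloperoxidase gene of neutrophils, so any cell in which the reporter is active can enter the sort. At 2dpf (days post fertilization) the groups were wildtype, tet2-/-, tet3-/- and tet2/3DM embryos, the last being tet2 and tet3 double mutants, and 1 more group was wildtype at 1.5dpf. The labels name no alleles. Nor do they tie the 3 libraries of a group to different clutches or sorts, so that p-values reflect library-to-library spread that could be technical. tet2 and tet3 encode enzymes that oxidise 5-methylcytosine in DNA.

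Splicing removes introns from precursor mRNA on the spliceosome, which is built from small nuclear ribonucleoproteins (snRNPs) named U1, U2, U4, U5 and U6 after their RNA. The srsf genes encode SR proteins, which bind exonic enhancers and recruit the spliceosome, and hnRNP proteins coat nascent RNA and often oppose SR proteins at splice sites. The snrp genes encode snRNP proteins, among them the Sm proteins that form a ring on most spliceosomal RNAs, the sf3 genes encode the SF3A and SF3B complexes of U2, which hold the branch point, and the prpf genes encode factors of the tri-snRNP of U4, U6 and U5, of the catalytic core and of U1. In human myeloid cancers, mutations in genes for splicing factors such as SRSF2 and SF3B1 and in TET2 are both frequent.

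Values are normalised read counts, meaning the reads of a gene divided by a size factor for the library. Log2 changes, their standard errors (SE) and adjusted p-values come from limma on log2(value + 1), fitted to all 15 libraries, with Benjamini-Hochberg adjustment over 15933 genes. A gene is said to have risen or fallen where the adjusted p was under 0.05, and that test is two-sided. Genes below 10 in all but 2 or fewer libraries were left out, and none of the 72 was among them. The mean over groups was at least 1000 for 48 of the 72 and under 100 for 3 (srsf3a, hnrnpa3 and srsf7b). Read counts grow with transcript length, so levels are compared between groups for 1 gene and not between genes. The median gene of the 72 had a mean count of 1520, against 271 for all genes tested, and the 72 varied less within groups. Shares of all genes given below were not matched for count or spread. In bulk samples fewer cells of a type and less RNA per cell cannot be told apart.

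Library totals ran from 5.64 to 31.06 M reads, lowest in tet3-/- replicates 1 and 2 and highest in the double mutants. mpx transcripts averaged between 36481 and 57736 across the groups, and none of 10 neutrophil markers was at 0 in any library. Neither targeted gene passed in the groups that carry its mutation. tet2 averaged 1713 ± 176 (SD, n = 3) in wildtype at 2dpf, 1643 ± 304 in tet2-/-, 1152 ± 187 in tet3-/- and 1503 ± 973 in double mutants, and tet3 averaged 1374 ± 230 in wildtype, 1993 ± 399 in tet3-/- and 2324 ± 665 in double mutants. All tet2 values in tet3-/- were below, and all tet3 values in double mutants above, those of wildtype at 2dpf. A count over a whole transcript does not show whether an allele is mutant. Libraries stood apart in heat shock transcripts. The closely related genes hsp70l and hsp70.3 together took 3.52 to 4.14% of normalised counts in wildtype at 2dpf, 2.18 to 4.88% in tet2-/-, 0.279 to 0.299% in tet3-/-, 0.0789, 1.89 and 0.603% in double mutant replicates 1, 2 and 3, and 0.0570 to 0.107% at 1.5dpf. No batch or sorting day is labelled.

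The 72 genes together were a larger share of the transcriptome in tet3-/-, double mutant and 1.5dpf libraries than in wildtype at 2dpf. Their share of normalised counts was 0.845, 0.838 and 0.851% in the 3 wildtype libraries at 2dpf. It was 1.14, 0.930 and 0.760% in tet2-/-, which lie on both sides of wildtype, and 1.14, 1.11 and 1.11% in tet3-/-. In double mutants it was 1.38, 1.13 and 1.33%, and at 1.5dpf 1.23, 1.12 and 1.51%. Every library of these last 3 groups was above every wildtype library at 2dpf. The total behind each share includes heat shock counts, which went from 1482100 ± 78843 in wildtype at 2dpf to 137480 ± 1815 in tet3-/-. Fewer of these counts raise the share of every other gene. As summed counts the 72 genes went from 142000 ± 3043 in wildtype at 2dpf to 168890 ± 1920 in tet3-/-. The sums were 192240 ± 16858 in double mutants and 199540 ± 14064 at 1.5dpf. The median gene of the 72 was above its wildtype mean by 0.53, 0.17 and 0.31 (log2) in double mutant replicates 1, 2 and 3. It was above it by 0.40, 0.37 and 0.52 at 1.5dpf and by 0.11, 0.13 and 0.20 in tet3-/-. In tet2-/- the values were 0.19, 0.05 and -0.10. Summed by family, hnRNP genes went from 65455 ± 603 in wildtype at 2dpf to 91682 ± 5102 in double mutants and 93326 ± 6993 at 1.5dpf. In the same order, SR genes went from 31958 ± 1405 to 38899 ± 2719 and 45008 ± 2813. The prpf genes went from 17370 ± 561 to 25025 ± 3058 and 24871 ± 2580, and sf3 genes from 15383 ± 582 to 21045 ± 2373 and 20465 ± 1903. The snrp genes went from 11834 ± 1473 to 15590 ± 4231 and 15872 ± 1234. Their sum in double mutant replicate 2 (12064) was below that of wildtype replicate 1 at 2dpf (13533).

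**Figure D1:**
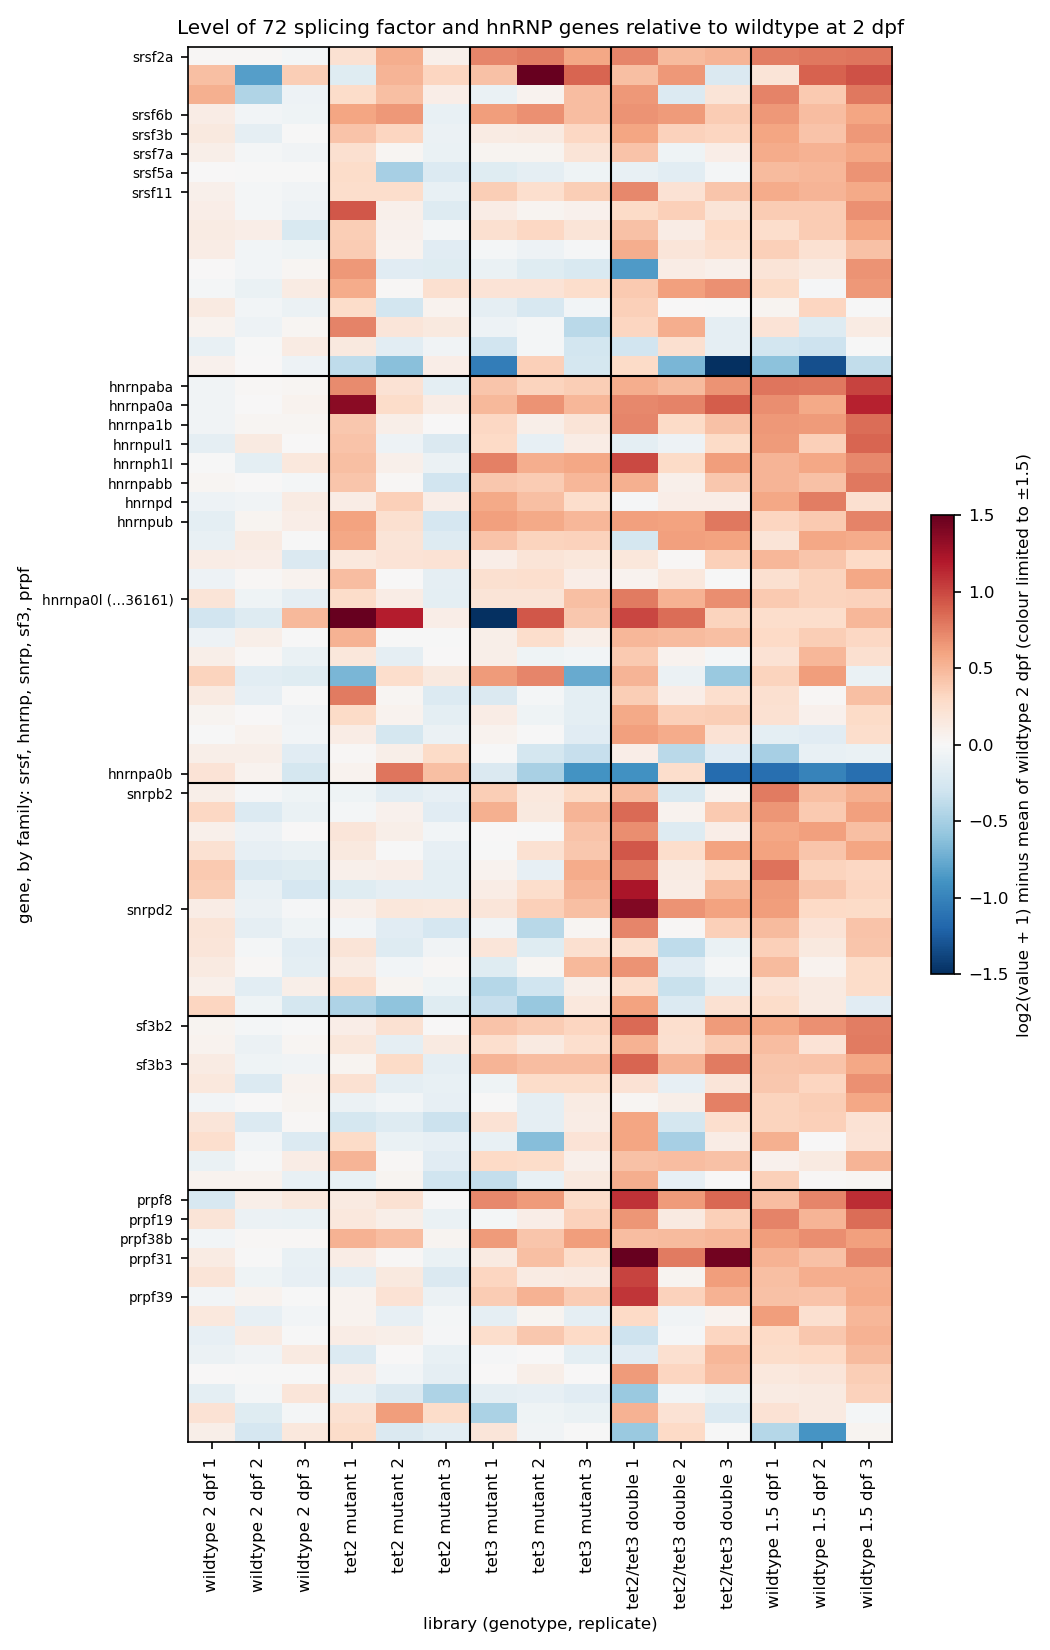
Levels of the 72 genes (rows, grouped by family) in 15 libraries (columns), as log2(value + 1) minus the mean of the 3 wildtype libraries at 2dpf, with the colour limited to plus or minus 1.5 and names at the 25 genes that passed in at least 1 comparison. Red, above wildtype, is most even in the 1.5dpf columns, where 64 to 66 of 72 genes were above the wildtype mean, and double mutant replicate 1 is redder than replicate 2.

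The first comparison set double mutants against wildtype at 2dpf. Of the 72 genes 9 rose, none fell and 63 did not pass, where 8.68% of all genes tested changed, 3.41% up and 5.27% down. The 9 belong to every family: 3 prpf genes, 2 sf3, 2 hnrnp, 1 snrp and 1 srsf gene. The median change of the 72 was 0.29 (log2), with 61 above 0, against 0.01 and 51.0% above 0 for all genes. In 28 genes (38.9%) every double mutant library was above every wildtype library, against 15.5% of all genes, and in 1 gene, srsf5a, every double mutant library was below, against 15.7%. No member is among the 100 tested genes that lie nearest to tet2 or to tet3 in the RefSeq gene order.

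prpf31 had the largest change. It encodes a protein of the U4/U6 snRNP that is needed to join it to U5, and its human counterpart is mutated in a form of retinitis pigmentosa. It stood at 534, 490 and 455 in wildtype at 2dpf, 532, 498 and 458 in tet2-/-, 542, 674 and 592 in tet3-/-, 1722, 843 and 1341 in double mutants and 707, 669 and 813 at 1.5dpf. The 3 double mutant libraries lie above all 12 others. prpf31 rose by 1.34 in double mutants (SE 0.22, adjusted p = 0.0012 by limma), with no 1 library deciding the call, and did not pass in tet3-/- (0.29) or at 1.5dpf (0.56, adjusted p = 0.081). The interaction, which asks whether the double mutant departs from the sum of the single mutants on the log2 scale, was 1.05 (SE 0.31, adjusted p = 0.24).

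prpf8 encodes the scaffold of the catalytic core, at the centre of the U5 snRNP. Its values were 3379, 4264 and 4456 in wildtype at 2dpf, 4398, 4678 and 3979 in tet2-/-, 6591, 6248 and 4859 in tet3-/-, 8475, 6216 and 7247 in double mutants and 5510, 6662 and 8641 at 1.5dpf. All libraries of the last 3 groups are above all wildtype libraries at 2dpf. It rose by 0.86 in double mutants (SE 0.20, adjusted p = 0.012 by limma), and did not pass without wildtype replicate 1 (adjusted p = 0.067) or double mutant replicate 1 (0.051). prpf39, whose yeast counterpart belongs to the U1 snRNP, stood at 2714, 2886 and 2783 in wildtype and 5855, 3550 and 4015 in double mutants. Replicate 1 holds the highest value, and the groups do not overlap. It rose by 0.65 (SE 0.18, adjusted p = 0.032 by limma), a call that ended without any 1 wildtype library or without double mutant replicates 1 or 3 (adjusted p 0.061 to 0.12) or with only these groups fitted (0.061). Among the other prpf genes, prpf6, a bridge between U5 and U4/U6, had 1473, 1462 and 1460 in wildtype and 2273, 1826 and 2014 in double mutants, with no overlap (log2 change 0.47, adjusted p = 0.061 by limma). prpf18, a factor of the late catalytic step, was 374 ± 52.5 in wildtype and 430 ± 107 in double mutants.

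Among the SF3B subunits of U2, sf3b3 and sf3b2 rose. sf3b3 was 3126, 2739 and 2760 in wildtype at 2dpf, 2952, 3493 and 2604 in tet2-/-, 4087, 3969 and 3960 in tet3-/- and 5244, 4101 and 4922 in double mutants. Double mutants are above tet3-/-, and tet3-/- above wildtype, with no overlap at either step. The change of sf3b3 in double mutants was 0.72 (SE 0.16, adjusted p = 0.0090 by limma), and the call held without each library in turn. sf3b2 was 2116, 2018 and 2054 in wildtype and 3706, 2465 and 3209 in double mutants. The groups do not overlap, and sf3b2 rose by 0.58 (SE 0.16, adjusted p = 0.035 by limma). Its call held only without double mutant replicate 2, the lowest of its group, and ended without any of the other 5 libraries (adjusted p 0.086 to 0.13), under quantile normalization (0.052) and with only these groups fitted (0.063). sf3b1, which encodes the subunit that contacts the branch point, was 3900, 4170 and 4525 in wildtype and 5682, 5766 and 5661 in double mutants. Those groups do not overlap, yet the adjusted p was 0.15 by limma (log2 change 0.44). sf3b5, a small SF3B subunit, was 418 ± 68.3 and 456 ± 166.

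Of the 12 snrp genes only snrpd2 passed. It encodes SmD2, a protein of the Sm ring, and stood at 953, 832 and 875 in wildtype at 2dpf, 932, 997 and 984 in tet2-/-, 1001, 1131 and 1215 in tet3-/- and 2314, 1408 and 1349 in double mutants. Double mutants lie above the other 9 libraries at 2dpf, and replicate 1 is far above replicates 2 and 3. It rose by 0.89 (SE 0.20, adjusted p = 0.010 by limma), by 0.64 and still past the threshold without double mutant replicate 1, and did not pass without wildtype replicate 2 (adjusted p = 0.052). snrpb, which encodes the Sm proteins B and B', had 2775, 2164 and 2203 in wildtype and 4504, 2849 and 3593 in double mutants. These groups do not overlap either, with an adjusted p of 0.058 by limma (log2 change 0.60). The Sm gene snrpd1 was 1225 ± 66.9 and 1453 ± 473, and the Sm gene snrpd3 was 561 ± 120 and 657 ± 183. snrpa, which encodes the A protein of the U1 snRNP, was 1274 ± 119 and 1225 ± 267.

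The hnRNP genes that rose were hnrnpub and hnrnpa0l. hnrnpub is 1 of 2 copies of the gene for hnRNP U, a nuclear matrix protein, and stood at 4500, 5093 and 5329 in wildtype at 2dpf, 7529, 5840 and 4160 in tet2-/-, 7606, 7329 and 6992 in tet3-/- and 7606, 7566 and 8584 in double mutants. tet2-/- libraries spread across the range of the other groups. The change in double mutants was 0.67 (SE 0.20, adjusted p = 0.041 by limma), and the call ended without any 1 of the 6 libraries (adjusted p 0.055 to 0.145) and under quantile normalization (0.077). hnrnpa0l, an A/B-type hnRNP gene, here the row with identifier ENSDARG00000036161, was 13525, 11370 and 10801 in wildtype and 20374, 17032 and 19230 in double mutants. It rose by 0.67 (SE 0.16, adjusted p = 0.015 by limma) with no overlap. Its call ended with wildtype replicate 2 or 3, or double mutant replicate 1 or 3, left out (adjusted p 0.052 to 0.081). The same symbol stands on a second row, ENSDARG00000076380, which the gene name table calls gzf1 and the deposited human symbol GZF1, so that row may be no hnRNP gene, and it was 239 ± 29.9 and 270 ± 31.7. hnrnpm was 3598, 3764 and 3519 in wildtype, 3757, 3598 and 3219 in tet3-/- and 5547, 5348 and 4207 in double mutants, with no overlap between double mutants and wildtype (log2 change 0.46, adjusted p = 0.11 by limma).

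srsf2a was the SR gene that rose, and it is described with the tet3-/- group. The largest change downward among the 72, of srsf7b, did not pass (66.2 ± 3.18 and 47.6 ± 30.4). hnrnpa0b was 669, 601 and 484 in wildtype and 308, 698 and 261 in double mutants. Replicate 2, the double mutant library with the most heat shock transcripts, lies above all wildtype libraries and the other two below them (log2 change -0.60, adjusted p = 0.27 by limma).

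**Figure D2:**
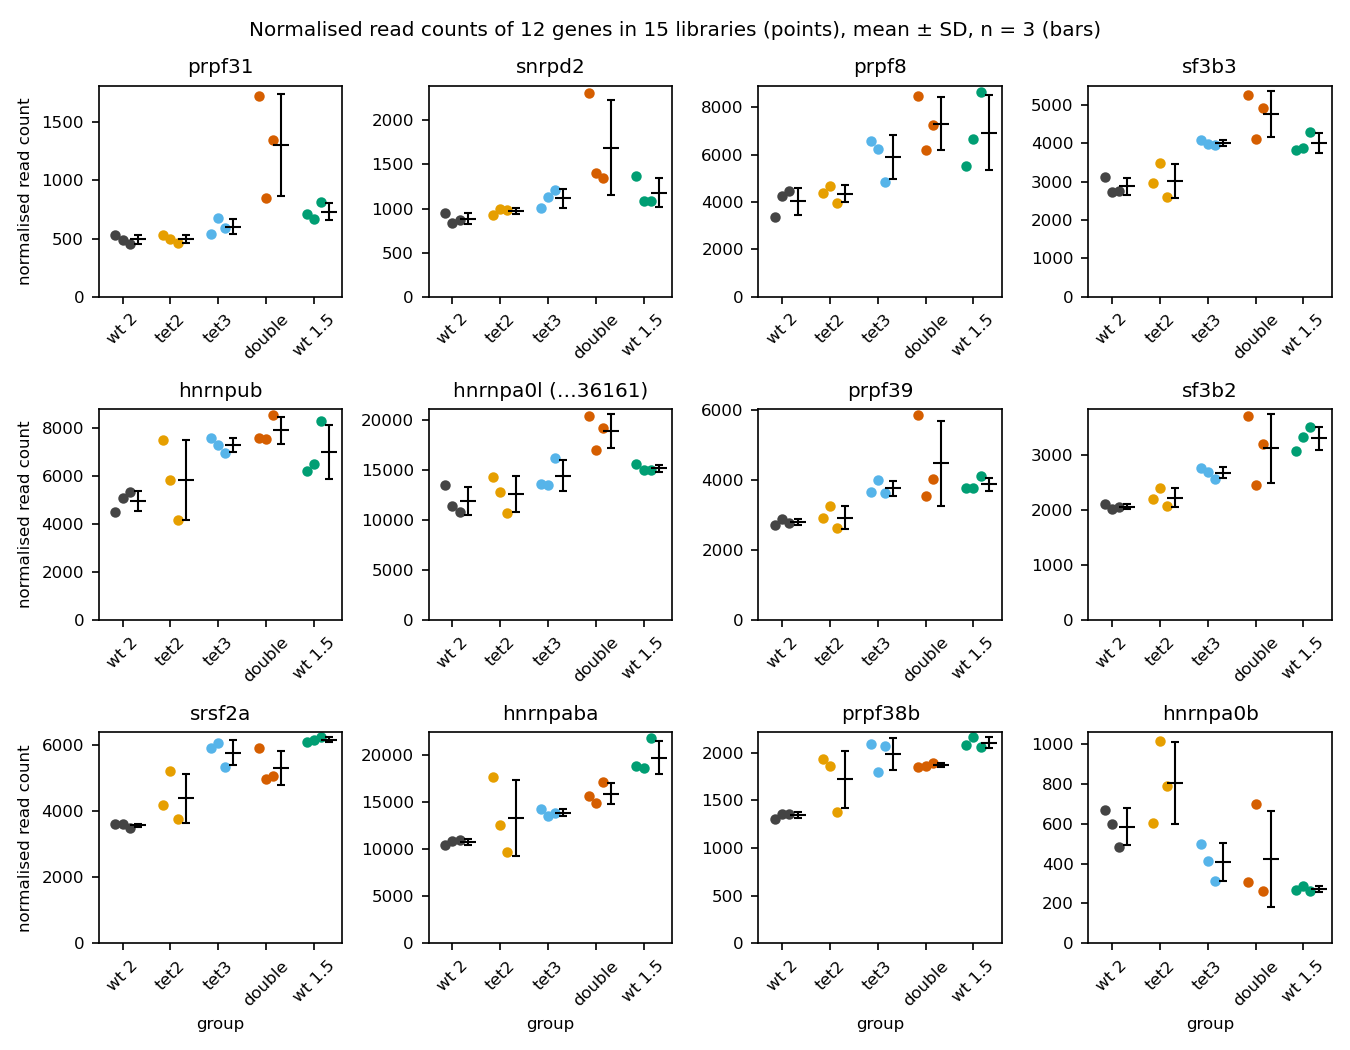
Normalised read counts (vertical axes, from 0) of 12 genes in each library (points), with mean and SD of 3 libraries (bars), for wildtype at 2dpf, tet2-/-, tet3-/-, tet2 and tet3 double mutants and wildtype at 1.5dpf. The prpf31 points of double mutants lie above all others, and srsf2a is high in tet3-/-, double mutant and 1.5dpf libraries. The mean of hnrnpa0b is lowest at 1.5dpf, although its lowest single point is double mutant replicate 3 (261).

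Leaving out single libraries moved the double mutant count. With wildtype replicates 1, 2 and 3 left out in turn, 4, 3 and 4 genes were called in place of 9. With double mutant replicates 1, 2 and 3 left out in turn, 3, 16 and 4 were called. Shares of all genes called in these fits are not given, so the counts cannot show whether members moved more than other genes. Within the double mutants, replicate 1 held the highest value of its group for 49 of 72 genes and replicate 2 the lowest for 42. Summed over 18 heat shock genes in the table, the share of counts was 8.16 to 9.34% in wildtype and 0.435, 4.72 and 1.46% in double mutant replicates 1, 2 and 3. With the level of hsp70l in each library as a covariate none of the 72 passed, and 159 of all genes did, where 1383 did without it. prpf31 then had a change of 0.62 and an adjusted p of 0.30 by limma, and the median of the 72 was 0.10. hsp70l was 367870 to 426510 in wildtype and 5505 to 156510 in double mutants. These ranges do not overlap, so that fit cannot separate heat shock from genotype. Other markers moved with the same groups: endothelial markers were lower (10 of 20 fell, summed share 0.0508 to 0.0558% in wildtype and 0.0185 to 0.0222% in double mutants), pigment cell markers higher (7 of 14 rose, 0.00981 to 0.0107% and 0.0507 to 0.0838%) and neural markers higher (3 of 18 rose, 0.0516 to 0.0603% and 0.0880 to 0.175%). Of 20 muscle markers 5 fell. Their summed share was 0.119 to 0.145% in wildtype and 0.359, 0.0124 and 0.0171% in double mutant replicates 1, 2 and 3. Replicate 1 was thus above every wildtype library, and the other double mutant libraries were below. Of 17 macrophage markers 6 fell and 1 rose (0.354 to 0.371% and 0.288 to 0.428%), among them lgals3bpb from 4422 to 162. None of these markers was at 0 in all libraries of either group, and the part of heat shock transcripts or other cells in the changes of splicing genes was not tested.

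Other splicing genes were read from 7 lists of spliceosome proteins and splicing regulators, 155 of whose 166 entries were tested and none of which are among the 72. In double mutants 15 rose and 2 fell, with a median of 0.25. Of 29 genes for proteins of the U1, U2, U5 and minor snRNPs, a list that also holds tri-snRNP genes, 5 rose. eftud2, which encodes the U5 GTPase, went from 1298 ± 68.3 to 2680 ± 692 (1.01 on the log2 scale, adjusted p = 0.0030 by limma). snu13a, whose product binds U4 RNA, went from 222 ± 56.3 to 656 ± 279 (1.48), and the U5 helicase gene snrnp200 from 1962 ± 285 to 3501 ± 640 (0.83). The U5 helicase gene ddx23 (0.68) and the tri-snRNP gene sart1 (0.63), named after their values were seen, rose too. eftud2 held its call without each library in turn. snu13a did not pass without wildtype replicate 3 (adjusted p = 0.053), nor snrnp200 without wildtype replicate 1 or double mutant replicates 1 or 3 (adjusted p 0.061 to 0.080). In the other lists, the factors xab2 (0.81), crnkl1 (0.61) and aqr (0.68) of the catalytic spliceosome rose, as did rbm39a (0.58), which is related to U2AF, and casc3 (0.61), of the exon junction complex. Each of these 5 lost its call without at least 4 of the 6 libraries. tial1, a regulator that binds U-rich introns, rose from 1247, 1143 and 1211 to 2112, 2404 and 2344 (0.93, adjusted p = 0.0027 by limma), with no 1 library deciding the call. ptbp1b, a gene for a polypyrimidine tract binding protein, rose by 0.66, and mbnl3, of the muscleblind family, fell from 679 ± 105 to 356 ± 93.6 (-0.95). The calls of both ended without at least 4 of the 6 libraries. rbfox1, described below with tet3-/-, was the other gene that fell, from 498 ± 49.1 to 211 ± 62.8 (-1.28, adjusted p = 0.046 by limma). It was named here after its values were seen, and its call was not followed through the fits without 1 library. None of 8 SR protein kinase genes and none of 18 Lsm and snRNP assembly genes passed by limma.

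The comparison of tet2-/- with wildtype found little. None of the 72 passed by limma, and edgeR and DESeq2 also called 0, where 0.100% of all genes changed and 0.0314% rose by limma. At an unadjusted p under 0.05 there were 2 (2.78%, against 6.29% of all genes). The 2 were hnrnpa0a (log2 change 0.58, adjusted p = 0.74 by limma) and prpf38b (0.34, adjusted p = 0.77 by limma). The median change was 0.06, with 51 of 72 above 0, against -0.002 and 49.7% above 0 for all genes. The libraries differed among themselves: replicate 1 was the highest of its group for 46 of 72 genes and replicate 3 the lowest for 47. hnrnpa0a, an A/B-type hnRNP gene, stood at 4374, 2074 and 1857 in tet2-/- against 1654, 1722 and 1774 in wildtype, so 1 library sets its mean. That library, replicate 1, stood apart from replicates 2 and 3 in other markers. Its summed neural (0.257%, against 0.0924 and 0.0429%), erythroid (0.178%, against 0.0805 and 0.0226%), pigment (0.0410%, against 0.0162 and 0.00822%) and muscle markers (0.180%, against 0.0382 and 0.117%) were the highest of its group. Its neutrophil (0.880%, against 2.2 and 1.76%), macrophage (0.158%, against 0.363 and 0.342%) and endothelial markers (0.0389%, against 0.0516 and 0.0807%) were the lowest, and their part in its values was not tested. Every tet2-/- library was above every wildtype library in 6 genes (8.33%, against 5.54% of all genes) and below in 1, sf3a3 (1.39%, against 6.13%). Of 155 other splicing genes 0 passed.

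In tet3-/- 2 of the 72 rose, srsf2a and prpf38b, and none fell, where 7.27% of all genes changed, 3.69% up and 3.58% down. The count of 2 was 0 or 1 with any 1 of the 6 libraries left out, where the shares of all genes are not given. The median change was 0.15 (log2), with 48 above 0, against -0.04 and 46.9% above 0 for all genes. Every tet3-/- library was above every wildtype library in 25 genes (34.7%, against 19.3% of all genes), and below in 2, srsf5a and srsf5b (2.78%, against 19.9%).

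srsf2a is 1 of 2 copies of the gene for SRSF2, an SR protein that acts through exonic enhancers. It stood at 3598, 3598 and 3506 in wildtype at 2dpf, 4188, 5215 and 3760 in tet2-/-, 5915, 6075 and 5339 in tet3-/-, 5914, 4962 and 5063 in double mutants and 6087, 6155 and 6247 at 1.5dpf. All 12 libraries of the other groups are above all 3 wildtype libraries at 2dpf, and tet3-/- is above tet2-/- without overlap. It was the 1 member to pass in 3 comparisons, all of which share those wildtype libraries. The change was 0.69 in tet3-/- (SE 0.15, adjusted p = 0.014 by limma), 0.57 in double mutants (adjusted p = 0.029) and 0.79 at 1.5dpf (adjusted p = 0.0023). In tet2-/- it was 0.29 (adjusted p = 0.84), and between tet3-/- and tet2-/- 0.41 (adjusted p = 0.13). The 1.5dpf call held without each library in turn. The tet3-/- call ended without wildtype replicates 2 or 3 or tet3-/- replicates 1 or 2 (adjusted p 0.054 to 0.065), and the double mutant call without any of 5 libraries, all but double mutant replicate 2 (0.068 to 0.10). srsf2b, the other copy, had 409, 389 and 455 in wildtype and 546, 641 and 670 in double mutants (log2 change 0.57, adjusted p = 0.10 by limma).

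prpf38b, a relative of the tri-snRNP factor gene prpf38a, had 1306, 1361 and 1359 in wildtype at 2dpf and 2095, 1795 and 2072 in tet3-/-. It had 1930, 1855 and 1376 in tet2-/-, 1849, 1863 and 1892 in double mutants and 2078, 2169 and 2061 at 1.5dpf. Wildtype at 2dpf is below every other library. The tet3-/- change of 0.56 (SE 0.16, adjusted p = 0.040 by limma) did not pass without any 1 of the 6 libraries (adjusted p 0.073 to 0.13) or under quantile normalization (0.071), whereas the 1.5dpf change of 0.65 (adjusted p = 0.0089) held without each.

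srsf5a, an SR gene, had its 3 tet3-/- and 3 double mutant libraries below wildtype. It stood at 4462, 4440 and 4421 in wildtype at 2dpf, 3928, 4039 and 4252 in tet3-/-, 4096, 3988 and 4343 in double mutants and 6176, 6280 and 7064 at 1.5dpf. tet3-/- and double mutants lie below wildtype and the younger embryos above it, with no overlap. The mutant changes of -0.13 and -0.10 did not pass (adjusted p = 0.73 and 0.79 by limma).

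Of the other splicing genes 10 rose and 2 fell in tet3-/-. rbfox1, of the Fox family of splicing regulators, fell from 540, 444 and 509 to 122, 128 and 208 (-1.74 on the log2 scale, adjusted p = 0.013 by limma), and its relative rbfox1l fell from 264 ± 48.4 to 79.9 ± 13.7 (-1.70). casc3 rose from 1133 ± 45.2 to 1939 ± 104 (0.77, adjusted p = 0.013 by limma), tial1 from 1200 ± 53.0 to 2021 ± 162 (0.75), rbm39a by 0.63, crnkl1 by 0.60 and rbm5, a relative of the U2AF-binding factors, by 0.79. Each of these 7 lost its call without at least 2 of the 6 libraries, and crnkl1 and rbm5 without any. Heat shock transcripts were far lower in tet3-/- than in wildtype (summed share 0.908 to 0.915%, against 8.16 to 9.34%), and with hsp70l as a covariate the median change of the 72 was -0.18. hsp70l itself was 17123 to 17787 in tet3-/-, far below every wildtype library, so that fit cannot separate heat shock from genotype. Of 20 endothelial markers 6 rose (0.0601 to 0.0891%, against 0.0508 to 0.0558%), of 14 pigment markers 5 rose (0.0397 to 0.0486%, against 0.00981 to 0.0107%) and of 20 muscle markers 7 fell (0.0193 to 0.0758%, against 0.119 to 0.145%), and their part was not tested. Between tet3-/- and tet2-/- none of the 72 passed by limma (5.19% of all genes did, 2.65% up and 2.54% down), 8 (11.1%) had an unadjusted p under 0.05, against 23.0% of all genes, edgeR called 0 and DESeq2 1.

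**Figure D3:**
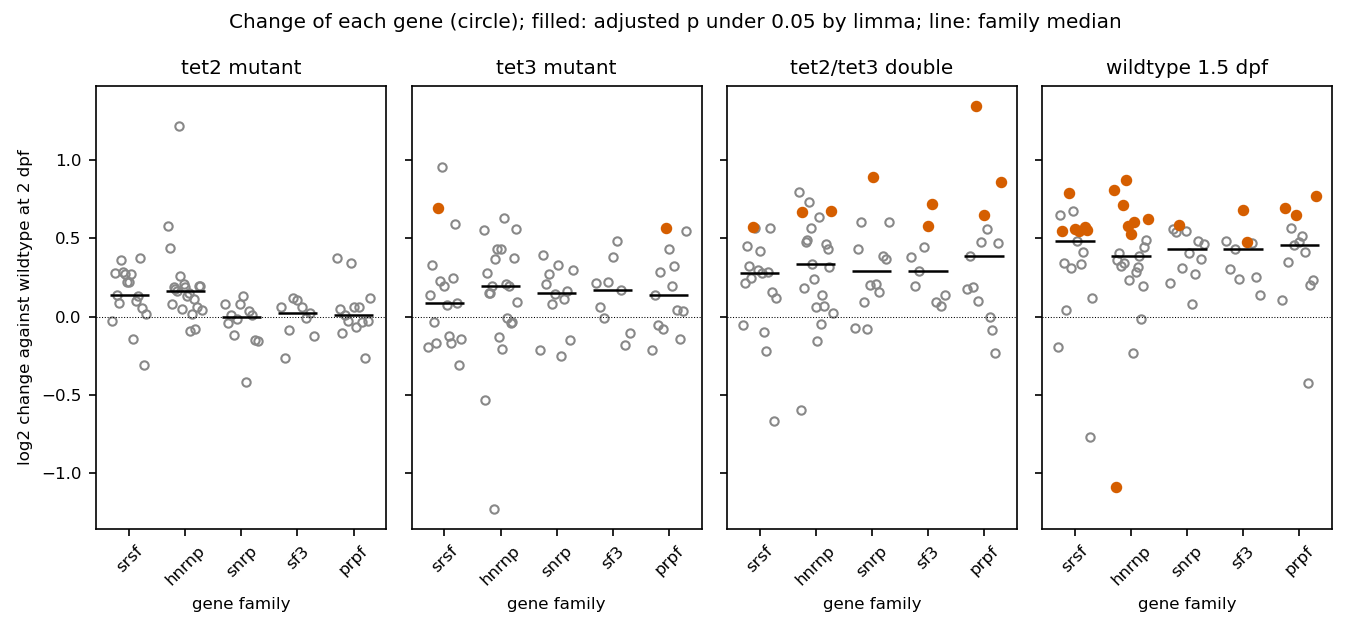
Log2 change of each of the 72 genes (circles) against wildtype at 2dpf, by family, in 4 panels for tet2-/-, tet3-/-, double mutants and wildtype at 1.5dpf, with filled circles for an adjusted p under 0.05 by limma and lines at the family medians. The lines lie between 0.28 and 0.39 in double mutants and between 0.39 and 0.48 at 1.5dpf. The panels share the wildtype libraries at 2dpf.

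The widest difference lay between the 2 wildtype stages. At 1.5dpf 19 of the 72 were higher than at 2dpf, 1 was lower and 52 did not pass, where 20.8% of all genes changed, 9.18% higher and 11.6% lower. The median change was 0.42 (log2), with 66 of 72 above 0, against -0.01 and 49.3% for all genes. In 48 genes (66.7%) every 1.5dpf library was above every 2dpf library, against 20.9% of all genes, and in 2 (2.78%) below, against 22.4%. SR genes gave 6 of the 19, hnRNP genes 7, prpf genes 3, sf3 genes 2 and snrp genes 1.

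hnrnpaba, a gene for hnRNP A/B, had the largest rise among the 72 at this stage. It stood at 10392, 10890 and 10966 at 2dpf and 18781, 18636 and 21767 at 1.5dpf, with 17623, 12517 and 9670 in tet2-/-, 14316, 13497 and 13834 in tet3-/- and 15666, 14906 and 17151 in double mutants. The 1.5dpf libraries are above all others. The change was 0.87 (SE 0.18, adjusted p = 0.0038 by limma), and in double mutants it was 0.56 (adjusted p = 0.069). Its copy hnrnpabb went from 6724 ± 154 to 10108 ± 1338 (0.58, adjusted p = 0.035 by limma).

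hnrnpa1b, a copy of the gene for hnRNP A1, which represses many exons, went from 4018, 4238 and 4231 to 6512, 6481 and 7461. Its change was 0.71 (SE 0.16, adjusted p = 0.0063 by limma). hnrnpa0a went from 1654, 1722 and 1774 to 2776, 2537 and 3829 (0.81, SE 0.25, adjusted p = 0.033 by limma), a call that held only without 1.5dpf replicate 2. hnrnpul1, hnrnph1l and hnrnpd, the last a gene for a protein that binds AU-rich RNA, rose by 0.62, 0.60 and 0.53.

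hnrnpa0b was the member that was lower at 1.5dpf. It had 669, 601 and 484 at 2dpf and 265, 289 and 263 at 1.5dpf, and 602, 1016 and 791 in tet2-/- and 499, 414 and 312 in tet3-/-. The stages do not overlap, nor do tet3-/- and tet2-/-. The stage change was -1.09 (SE 0.31, adjusted p = 0.022 by limma), and it did not pass without 2dpf replicates 1 or 2 or 1.5dpf replicate 1 (adjusted p 0.067 to 0.078). Between tet3-/- and tet2-/- the change was -0.97 (adjusted p = 0.081 by limma).

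Among prpf and sf3 genes, prpf19, which encodes a ubiquitin ligase at the core of a complex of the catalytic spliceosome, went from 1901, 1565 and 1550 to 2779, 2362 and 2973 (0.69, adjusted p = 0.013 by limma). That call ended without 2dpf replicates 2 or 3 (adjusted p = 0.056 and 0.058). prpf8 rose by 0.77 (adjusted p = 0.012), a call lost without 2dpf replicate 1 (0.058). sf3b2 went to 3084, 3325 and 3510, a change of 0.68 (SE 0.16, adjusted p = 0.0081 by limma) that held without each library. sf3b3 went to 3823, 3859 and 4296 (0.47, adjusted p = 0.042 by limma), and its call ended without any 1 of the 6 libraries (adjusted p 0.058 to 0.13) and under quantile normalization (0.12). snrpb2, which encodes the U2B'' protein, rose from 596 ± 33.7 to 899 ± 109 (0.59). The SR genes srsf3b, srsf5a, srsf6b, srsf7a and srsf11 rose by 0.54 to 0.57.

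The calls of 5 members, srsf2a, hnrnpaba, hnrnpa1b, sf3b2 and prpf38b, held without each of the 6 libraries. The count of 20 was 10, 6 and 7 without 2dpf replicates 1, 2 and 3, and 7, 14 and 10 without 1.5dpf replicates 1, 2 and 3. Shares of all genes called in these fits are not given. Under quantile normalization the count was 8. Heat shock transcripts separated the stages without overlap (summed share 8.16 to 9.34% at 2dpf and 0.174 to 0.270% at 1.5dpf). With hsp70l as a covariate none of the 72 passed, 41 of all genes did, where 3317 did without it, and the median of the 72 was -0.04. Erythroid markers separated them too (15 of 16 rose, 0.0255 to 0.0425% and 1.01 to 1.12%), as did pigment markers (12 of 14 rose, 0.00981 to 0.0107% and 0.0482 to 0.0594%). Muscle markers separated them by summed share (0.119 to 0.145% and 0.0345 to 0.0721%), but only 2 of 20 fell. Of all genes 9.18% were higher and 11.6% lower at 1.5dpf, so the muscle count is near that share. Of 20 endothelial markers 6 rose and 1 fell, of 18 neural markers 4 rose and 5 fell, of 17 macrophage markers 4 fell and of 10 neutrophil markers 2 rose. Stage cannot be told apart from these, and their part was not tested.

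**Figure D4:**
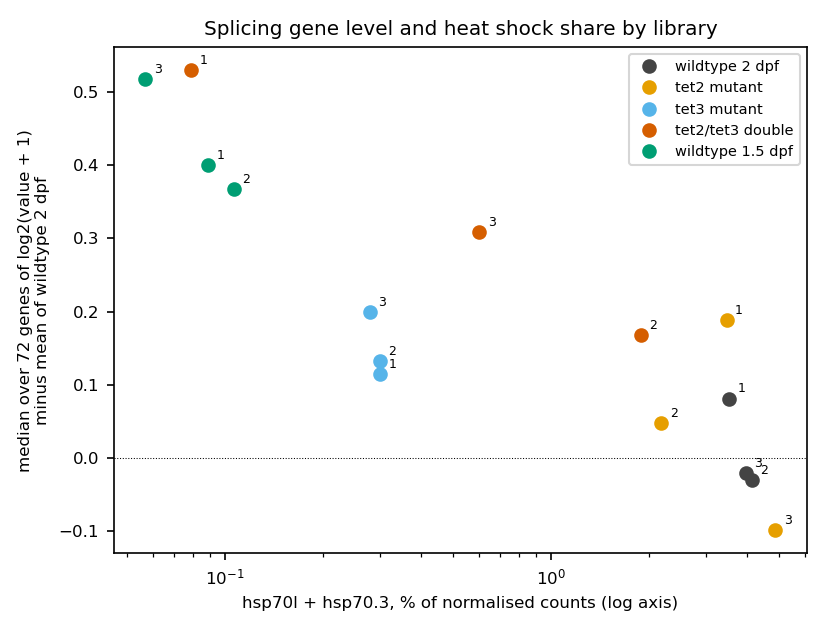
Median over the 72 genes of log2(value + 1) minus the wildtype mean at 2dpf (vertical axis) against the share of normalised counts from hsp70l and hsp70.3 (horizontal, log axis), 1 point per library, numbered by replicate. The 3 wildtype libraries at 1.5dpf and double mutant replicate 1 lie at the upper left, and wildtype at 2dpf and tet2-/- replicate 3 at the lower right. Other points depart from this order. The tet3-/- libraries (0.279 to 0.299%) have medians of only 0.11 to 0.20, below double mutant replicate 3 (0.603%, 0.31). The median of tet2-/- replicate 1 is 0.19 at 3.46%.

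Among other splicing genes at 1.5dpf 34 rose and 9 fell, with a median of 0.35. rbfox1 fell from 540, 444 and 509 to 75, 116 and 62.5 (-2.59 on the log2 scale, adjusted p = 0.00029 by limma). ewsr1b, a FET family gene, rose from 4606 ± 294 to 9009 ± 793 (0.97, adjusted p = 0.00035 by limma), and elavl1, the gene for the mRNA stability factor HuR, from 2949 ± 109 to 5625 ± 570 (0.93). These 3 held without each library. elavl1 also rose in double mutants (0.56, adjusted p = 0.041 by limma) and in tet3-/- (0.59, adjusted p = 0.035 by limma). Of 29 snRNP proteins 8 rose, led by eftud2 (0.80), sart1 (0.67) and usp39 (0.78). Of 17 exon junction and SR-related genes 6 rose, among them pnn (0.59), srrm1 (0.59) and the helicase gene eif4a3 (0.63). Of 25 genes for the prpf19 complex and catalytic factors 4 rose, among them snw1 (0.59), bcas2 (0.63) and crnkl1 (0.58). The kinases that phosphorylate SR proteins moved both ways: srpk1b rose from 455 ± 29.7 to 778 ± 236 (0.73), while srpk2 fell (-1.49, adjusted p = 0.013 by limma) and clk4a from 5259 ± 308 to 2368 ± 442 (-1.17, adjusted p = 0.015 by limma). Of 14 genes of U2AF and branch point recognition 4 rose, among them rbm39a (0.64) and tcerg1a (0.65), and 2 fell, among them rbm10 (120 ± 28.4 to 50.5 ± 3.24). prmt5, which encodes a methyltransferase of Sm proteins, rose by 0.61. Of these genes clk4a, eftud2, sart1, pnn and rbm39a also held without each library, and the others did not pass without 1 or more of the 6.

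Across the comparisons 25 of the 72 passed in at least 1 and 47 in none. The matching share of all genes was not counted, and at 1.5dpf alone 20.8% of all genes passed. Of the 9 that rose in double mutants 4 (srsf2a, prpf8, sf3b2 and sf3b3) also rose at 1.5dpf and 5 did not pass there. Both comparisons share the wildtype libraries at 2dpf, and the overlap over all genes was not counted. None of the 72 passed the interaction by limma (0.333% of all genes did, 0.0439% above 0), 6 (8.33%) had an unadjusted p under 0.05, against 8.13% of all genes, and edgeR and DESeq2 called 0.

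The zebrafish genome holds 2 copies, named a and b, of many of these genes, and 12 pairs with 1 human counterpart are in the table. Reads of near-identical copies may be split between them by the counting, so the shares of a copy below are compared between groups only. In the hnrnpa0 pair the a copy made up 71.2, 74.1 and 78.5% of the pair's counts in wildtype at 2dpf and 91.3, 89.8 and 93.6% at 1.5dpf. It was 82.8, 86.9 and 88.6% in tet3-/-, 90.2, 80.5 and 92.5% in double mutants and from 67.1 to 87.9% in tet2-/-. The tet3-/-, double mutant and 1.5dpf libraries are all above wildtype at 2dpf. The smallest two-sided p that 3 against 3 libraries allow in an exact permutation test is 0.1, so no test was made on shares. The a copy of hnrnpa1 was lower at 1.5dpf (48.8, 50.1 and 45.7%) than at 2dpf (54.3, 55.8 and 54.4%), and so was that of prpf4b, a kinase gene (24.2, 18.7 and 27.4% against 35.5, 28.6 and 31.6%). Neither pair overlaps between stages. The srsf10 a copy was 54.8, 71.8 and 68.4% at 2dpf and 48.2, 53.6 and 52.0% at 1.5dpf, also without overlap. Between the stages the a share was higher at 1.5dpf without overlap in 5 of the 12 pairs (hnrnpa0, hnrnpab, srsf1, srsf2 and srsf7), lower in 3 (hnrnpa1, prpf4b and srsf10) and overlapping in 4. Shares in other duplicate pairs were not counted. Among levels of all single genes 20.9% were higher and 22.4% lower at 1.5dpf without overlap. A level is another measure than a share within a pair, so these percentages are no background for the pair counts. In srsf2 the gap was narrow, with a highest share of 90.2% at 2dpf and a lowest of 90.5% at 1.5dpf. The hnrnpab share was 60.2, 61.8 and 62.6% at 2dpf and 66.2, 67.2 and 65.2% at 1.5dpf, and that of srsf1 was 80.1, 79.9 and 78.4% against 81.2, 83.8 and 82.8%. Over all 15 libraries srsf7a held 96.9 to 99.3% and srsf2a 87.2 to 93.8% of their pairs. srsf3a held only 0.711 to 3.11%, with 18.0 to 97.8 normalised counts, so srsf3b carried nearly all reads of that pair.

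**Figure D5:**
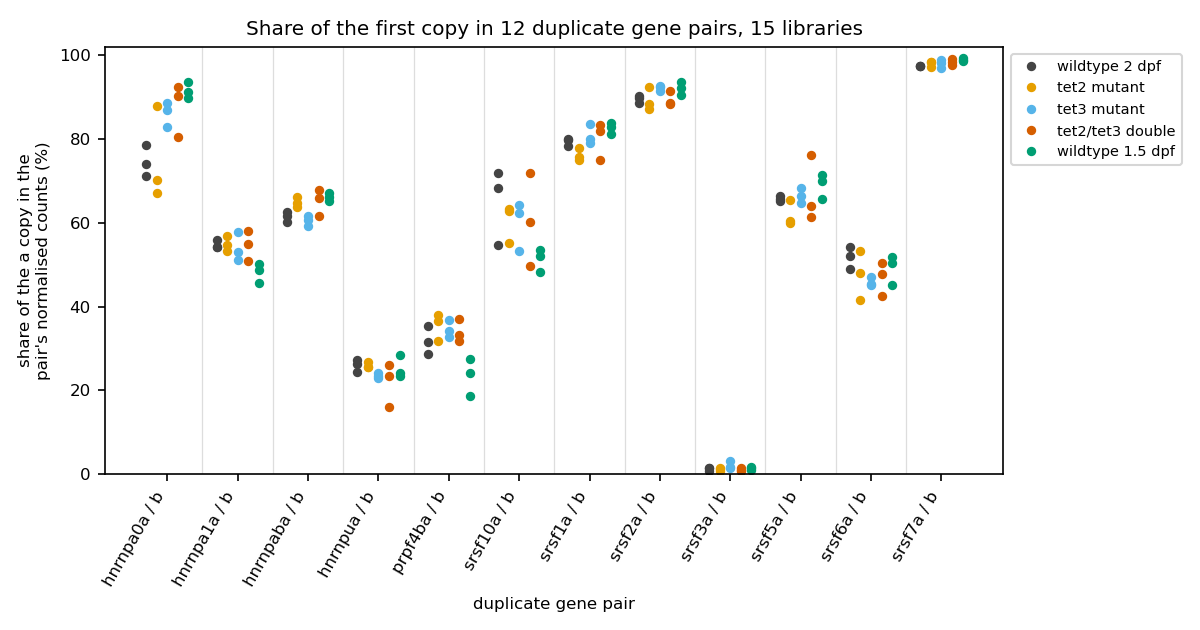
Share (%) of the a copy in the summed normalised counts of 12 duplicate gene pairs, 1 point per library and 1 colour per group. The hnrnpa0 shares at 1.5dpf, 89.8 to 93.6%, lie above those of wildtype at 2dpf, 71.2 to 78.5%, and those of hnrnpa1, prpf4b and srsf10 lie below.

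Some members varied too much to compare. hnrnpa3 had 25.4, 27.0 and 43.9 in wildtype at 2dpf, 166, 72 and 33.4 in tet2-/- and 0, 60.2 and 41.7 in tet3-/-. The value of 0 is in a library of 5.64 M reads. The largest changes of single members on the log2 scale in tet2-/- (1.22) and tet3-/- (-1.22) belong to this gene, with an SE of 1.1. Across the 72 the median coefficient of variation within a group was 8.34% in wildtype at 2dpf, 14.6% in tet2-/-, 8.19% in tet3-/-, 18.7% in double mutants and 11.5% at 1.5dpf, against 15.5, 28.6, 17.3, 26.1 and 24.2% for all genes tested.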

How the data were processed

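The libraries, 3 in each of 5 groups, were made with TruSeq RNA v2 from RNA of an RNeasy micro kit, per the labels' protocols. This chemistry keeps no strand information, so antisense and overlapping genes share reads. The submitters' processing notes name TopHat, Cufflinks and DESeq2, and build, annotation and counter are not given in the sources used. The deposited table holds a signal per gene and library: reads divided by the authors by a library size factor. The values show this, since 100% gave whole reads within 0.01 (largest deviation 8.9e-05). Recovered totals were 5.64 to 31.06 M reads.

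The main test was limma 3.58.1 in R 4.3.3, with the trend and robust options, on log2(value + 1) of all 15 libraries, with 1 mean per group and no covariate. A fold on this scale understates the change of low genes. The filter (a value of 10 or more in 3 or more libraries) kept 15933 of 15937 genes. As alternatives, recovered reads went into edgeR 4.0.16 and DESeq2 1.42.0. Each method was also run on simulated reads of independent libraries, for double mutants against wildtype only. The outcome of those runs is not given here. The members and lists were chosen with earlier results of these data known. Named are, per comparison, up to 8 called members with the largest rises and 8 with the largest falls (mean 50 or more in the higher group), the 3 highest and the lowest mean of each family, all a and b pairs, and up to 3 genes with the smallest p from each list. Further members and list genes were named after their values were seen. A member that the rule names is not reported here. Names were matched by identifier (71 of 72 members), and 6 rows whose human symbol belongs to these families but whose own symbol does not were left out. RefSeq gene order placed 84.3% of tested genes. snrpa and snrpb, and prpf38a and prpf38b, differ in human symbol and were not treated as pairs. Replicates of a group differed by 3.98 to 284.5 times sampling noise, so none is a copy of another. The lowest value was for tet3-/- replicates 1 and 2, the shallowest libraries, against 13.5 and 14.0 for each with replicate 3. Whether these 2 libraries come from separate sorts is not labelled, so the spread within tet3-/- may be understated. Alternatives covered pseudocount, filter, scaling, test, library weights, replicate block, an hsp70l covariate and libraries left out.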

Additional observations from a re-analysis of the deposited data

How the results depend on the processing

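The median change of the 72 genes in double mutants was above 0 under every alternative, while counts of called genes moved. Percentages here are the share of all genes that the same setting called. They are not given for the fits without 1 library or with the replicate block. Those counts therefore cannot show whether members lost or gained calls more than other genes. DESeq2 called 20 members in double mutants (13.1% of all genes), 5 in tet3-/- (10.9%) and 1 between tet3-/- and tet2-/- (10.4%). Library weights called 43 in double mutants (48.5% of all genes), 15 in tet3-/- (25.1%), 46 at 1.5dpf (47.1%), 3 between tet3-/- and tet2-/- (8.43%) and 3 in the interaction (5.17%). Quantile normalization called 1 in tet3-/- (7.09%) and 8 at 1.5dpf (17.6%), where it moved the median of all genes from -0.01 to 0.09 and that of the 72 to 0.37. Fitting only the groups compared called 16 in tet3-/- (24.6%). Without the 2 shallow tet3-/- libraries 5 were called in double mutants (6.77%), 0 in tet3-/- (0.295%) and 10 at 1.5dpf (17.2%). That fit leaves 1 tet3-/- library, assumed to vary like the other groups, so its count in tet3-/- says little. Leaving out 1 library gave 3 to 16 in double mutants, 0 to 1 in tet3-/-, 6 to 14 at 1.5dpf, 0 to 1 between tet3-/- and tet2-/-, 0 to 1 in the interaction and 0 in tet2-/-. With the replicate number as a block 7 members were called in double mutants, 1 in tet3-/- and 19 at 1.5dpf. The block ended the calls of hnrnpub and sf3b2 in double mutants, prpf38b in tet3-/-, and hnrnpul1 and sf3b3 at 1.5dpf. Their adjusted p was then 0.052 to 0.067 by limma. Deviations of same-numbered libraries correlated at -0.288 to 0.189. Libraries of different numbers were not compared in this way, so these values cannot show whether the numbers pair the samples.

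With hsp70l as a covariate 0 members were called in double mutants, tet3-/- and at 1.5dpf, and 1, prpf31, in the interaction (log2 1.28). Without the covariate the prpf31 interaction was 1.05 (adjusted p = 0.24 by limma), and 0 members were called. Shares of all genes called with the covariate are not given for tet3-/- or the interaction, so the prpf31 call cannot be set against other genes. With the covariate the medians of the 72 became 0.10 in double mutants, -0.18 in tet3-/- and -0.037 at 1.5dpf. Between tet3-/- and tet2-/- the median became -0.24. At 1.5dpf the changes of hnrnpabb (-0.086), hnrnph1l (-0.24), prpf19 (-0.018), sf3b2 (-0.0099), sf3b3 (-0.056), snrpb2 (-0.15), srsf11 (-0.14), srsf7a (-0.048), eftud2 (-0.14), bcas2 (-0.12), eif4a3 (-0.17) and clk4a (0.39) changed sign. The hsp70l levels of wildtype at 2dpf do not overlap those of tet3-/-, double mutants or wildtype at 1.5dpf, nor do those of tet3-/- and tet2-/- overlap. The covariate therefore cannot be separated from these groups, and the cause of these shifts was not tested.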
